A study of Mus musculus with 24 samples.

Results

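The genes described are the splicing factor and hnRNP genes of the mouse: protein-coding genes whose symbols begin with Srsf and a digit, Hnrnp, Snrp, or Sf3a or Sf3b and a digit. The rule found 52 genes among the 35519 whose reads could be summed, and 5 further symbols that matched it but were not protein-coding were left out. They divide by role into 11 SR proteins, 8 hnRNPs of the A/B, C and D types, 12 other hnRNPs, 8 core Sm proteins, 4 proteins of the U1 and U2 snRNPs, 3 SF3a subunits and 6 SF3b subunits.

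Introns are removed from pre-mRNA by the spliceosome, which is built from small nuclear ribonucleoprotein particles (snRNPs), each an RNA carried on a ring of Sm proteins. U1 marks the start of the intron and U2, with its SF3a and SF3b subcomplexes, marks the branch point near its end. SR proteins (genes named Srsf) bind exons and mostly favour their inclusion, while hnRNPs coat the nascent RNA and often favour skipping, and genes of both families are known to limit their own output through transcripts with a poison exon or a retained intron.

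The RNA came from microglia, the macrophages resident in the brain, which were sorted from whole brains of C57BL/6 mice as cells negative for Ly6C and positive for CD11b and Fcrls. Each library was made with Smart-Seq2, a full-length method without molecular identifiers or strand, from a lysate of 1000 cells. The 24 libraries form 8 groups: females or males, wild type (WT) or lacking neuroligin-4 (NL4-/-), and control or phagocytosis, with 2 libraries in each control group and 4 in each phagocytosis group. The labels give no age, do not say what the cells of the phagocytosis groups had taken up, and do not tie libraries to animals, although the design text speaks of biological replicates. The labels do not say how the knockout allele was made, control and phagocytosis groups of a genotype carry it alike, and no transcript of its gene, Nlgn4l, was in the files, so it could not be checked.

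Libraries held 421107 to 1013797 reads assigned to transcripts, and a gene at 10 CPM (reads scaled to a library total of 1e6) rests on about 4 to 10 reads. Markers of microglia summed to 30109 to 43066 CPM in control and 17729 to 41331 CPM in phagocytosis libraries. Between 4.07 and 23.3% of the reads of a control library (median 11.04%) and 1.52 to 16.3% of a phagocytosis library (median 5.95%) lay on transcripts resembling major satellite repeats. The share was over 20% in 3 controls, which were female NL4-/- number 1, male WT number 2 and male NL4-/- number 1. Ribosomal protein genes held 2.26 to 3.49% of control reads and 3.13 to 5.75% of phagocytosis reads. Of 10 neuronal markers, 9 were in the files, and they summed to 4.42 to 11.005 CPM in control and 12.6 to 108.6 CPM in phagocytosis libraries, with Uchl1 carrying most of it and Rbfox3 at 0 in 11 libraries. Markers of border-associated macrophages, all 6 listed, summed to 21.2 to 55.6 against 58.9 to 334.3 CPM, with Siglec1 carrying most of it (31.4 against 116.2 CPM on average). Medians of the summed markers were 31.0 against 71.1 CPM for monocytes, 146.4 against 207.5 CPM for oligodendrocytes and 351.9 against 212.2 CPM for lymphocytes. The part of any of these in the results below was not tested.

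Together the 52 genes took 0.458 to 0.549% of the reads of a control library (median 0.483%) and 0.479 to 0.633% of a phagocytosis library (median 0.537%). Levels per length, as TPM, which divide reads by transcript length, averaged over the 24 libraries, ran from 293.6 for Hnrnpk, a poly(C)-binding hnRNP, down to 0.122 for Srsf12. The most abundant by class were Srsf2 at 174 TPM, then Srsf5 and Srsf3 at 144.4 and 144.2 TPM, among SR proteins, Hnrnpa2b1 at 238 and Hnrnpa1 at 223, Hnrnpk and Hnrnpf (239) among other hnRNPs, Snrpb at 239.7 and Snrpg at 139.5 among Sm proteins, Snrpa at 90.4 and Snrpa1 at 59.1, Sf3a3 at 46.0 and Sf3a1 at 16.4, and Sf3b1 at 94.4 and Sf3b6 at 57.6 TPM. Neighbours in this order overlapped widely between libraries: Srsf2 ranged from 79.6 to 392 TPM and Srsf5 from 75.5 to 253.9 TPM.

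Reads sufficed to test 49 of the 52 genes. The other 3 were Hnrnpa0 with 94 reads in all libraries together, Srsf12 with 3.97 reads in 4 libraries, and Snrpn, an Sm protein gene known for its high level in neurons, with 46.2 reads in 15 libraries. Snrpn had a median of 1.36 CPM (range 0 to 8.54) in control and 1.71 CPM (range 0 to 18.1) in phagocytosis libraries.

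Promoters of members that moved are shown because the 7 genes that passed the test between states went both ways, and the stretch around the start is where they can be set side by side. RefSeq gave a promoter (GRCm38.p6, 250 bases before to 30 after the start) for 46 of the 52 genes, and for 6 of the 7. The first pair below belongs to genes that were lower in phagocytosis, Srsf2 (chr11:116853065-116853344, minus strand) and Sf3b1 (chr1:55027449-55027728, minus strand). The second pair belongs to genes that were higher, Hnrnpa1 (chr15:103240147-103240426, plus strand) and Snrpd2 (chr7:19149588-19149867, plus strand). Capitals mark every match, on either strand, to the 4 motifs searched. These were the ETS type motif CCGGAAG, the box spelled CCAAT, the GC box with the letters GGGCGG, and the TATA box searched as TATAAA. Different motifs do not overlap in these windows, and matches of the same motif may.
Srsf2: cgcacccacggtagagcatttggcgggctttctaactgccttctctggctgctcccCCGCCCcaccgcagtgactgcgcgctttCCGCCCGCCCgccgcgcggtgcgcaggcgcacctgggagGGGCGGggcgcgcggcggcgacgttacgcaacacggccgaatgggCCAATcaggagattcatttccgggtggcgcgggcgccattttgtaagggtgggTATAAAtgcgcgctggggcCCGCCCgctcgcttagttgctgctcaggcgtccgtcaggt
Sf3b1: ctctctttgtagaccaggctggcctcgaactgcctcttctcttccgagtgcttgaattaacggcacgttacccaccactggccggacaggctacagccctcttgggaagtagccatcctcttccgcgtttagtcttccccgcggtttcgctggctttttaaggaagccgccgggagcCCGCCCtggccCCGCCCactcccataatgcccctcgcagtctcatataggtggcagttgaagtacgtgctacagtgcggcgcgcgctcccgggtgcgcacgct
Hnrnpa1: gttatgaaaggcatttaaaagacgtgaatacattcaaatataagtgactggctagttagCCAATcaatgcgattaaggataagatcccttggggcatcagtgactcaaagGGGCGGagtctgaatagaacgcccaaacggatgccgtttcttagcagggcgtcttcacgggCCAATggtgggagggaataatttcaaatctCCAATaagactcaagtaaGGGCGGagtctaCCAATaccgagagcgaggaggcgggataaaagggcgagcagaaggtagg
Snrpd2: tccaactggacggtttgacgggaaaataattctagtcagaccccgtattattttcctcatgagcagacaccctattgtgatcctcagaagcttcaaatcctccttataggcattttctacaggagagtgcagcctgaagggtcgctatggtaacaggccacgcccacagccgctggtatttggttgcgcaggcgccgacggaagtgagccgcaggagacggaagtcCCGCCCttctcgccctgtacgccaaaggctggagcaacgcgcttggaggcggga
The Srsf2 window held 1 CCAAT, 5 GC boxes, 2 of them overlapping, and 1 TATA box, whereas that of Sf3b1 held only 2 GC boxes. The window of Hnrnpa1 held 4 CCAAT and 2 GC boxes, and that of Snrpd2 held 1 GC box. Of the 46 genes, 33 (71.74%) held a GC box against 34.69% of all 32851 windows of this length. Members were counted by gene and the background by window, and the background was not limited to genes expressed here. The ETS type motif was in 16 (34.78%) against 8.45%, the CCAAT box in 23 (50%) against 36.09%, and the TATA box in 7 (15.22%) against 13.1%. None of these motifs was in both windows of 1 pair and absent from both of the other, and a match shows only that the letters are there.

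The main comparison set the 16 phagocytosis libraries against the 8 controls, with each sex and genotype weighted equally. Of the 49 genes, 5 were higher and 2 lower in phagocytosis at an adjusted p below 0.05 (edgeR quasi-likelihood test, Benjamini-Hochberg over 9803 genes). Higher were Hnrnpa1, the Sm proteins Snrpd2 and Snrpf, the U2 protein Snrpa1 and the SF3b subunit Sf3b4, and lower were the SR protein Srsf2 and the SF3b subunit Sf3b1. The same rule called 13.6% of all tested genes, 8.41% higher and 5.18% lower, so 7 of 49 (14.3%) is near the share among all genes. The median log2 fold change was 0.09 over the 49 genes and -0.01 over all tested genes, and 29 of 49 were positive against 49.3% of all genes. In bulk RNA a change in the mix of cells cannot be told apart from a change in RNA per cell. No gene of the 49 had control and phagocytosis libraries that did not overlap, against 0.867% of all genes.

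**Figure D1:**
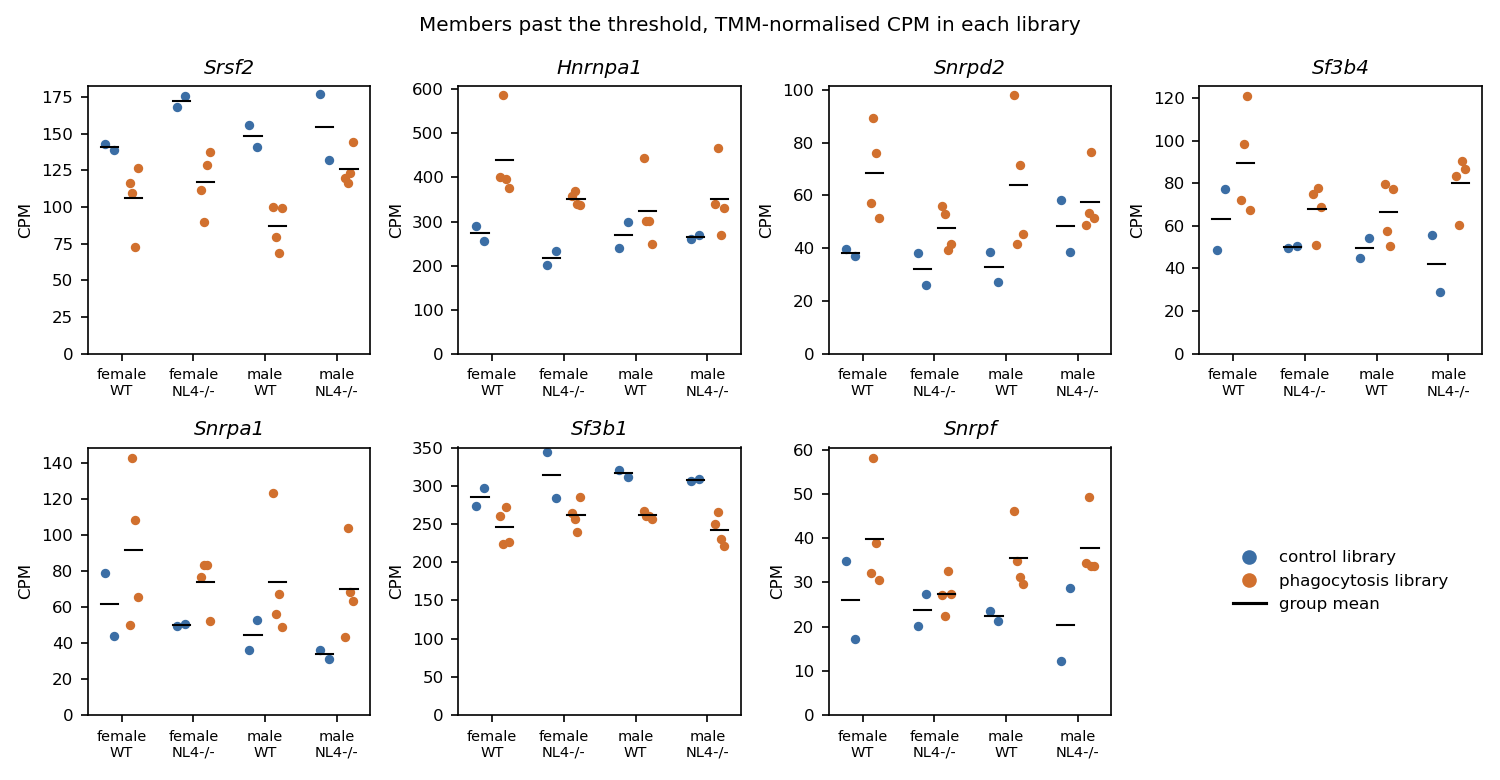
CPM (vertical axis, normalised) of the 7 genes past the threshold in each of the 24 libraries, by sex and genotype, with control libraries in blue, phagocytosis libraries in orange and a black line at each group mean. Srsf2 and Sf3b1 lie lower in phagocytosis in all 4 groups and the other 5 lie higher, with some libraries of the 2 states overlapping for each gene. The 7 genes were chosen on the mean state difference of these 4 groups.

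Among SR proteins, 1 of 10 tested fell and 0 rose, with a median log2 fold change of -0.11. The one past the threshold was Srsf2 (chr11, 116849901 to 116853094), which binds exonic enhancers and is known to control its own mRNA through decay. Srsf2 stood at 131.9 to 177.2 CPM (median 149.4) in control and 68.6 to 144.3 CPM (median 114.1) in phagocytosis libraries. Of the 16 phagocytosis libraries, 14 lay below every control. Srsf2 thus fell by 0.50 on the log2 scale (SE 0.12, edgeR adjusted p = 0.00358). It overlaps Mfsd11 and Mettl23 on the opposite strand, and the libraries carry no strand, so their shared bases cannot be told apart. Mfsd11, a membrane protein gene, went the other way, from 120.4 ± 20.4 (SD, n = 8) to 146.8 ± 27.0 CPM (SD, n = 16), a log2 difference of 0.30 that did not pass (edgeR adjusted p = 0.122). Srsf5 was at 163.0 to 286.1 CPM (median 209.2) in control and 122.0 to 246.5 CPM (median 182.8) in phagocytosis, a log2 difference of -0.22 (SE 0.12, edgeR adjusted p = 0.238). The states overlapped broadly for Srsf5. The remaining 8 lay between -0.30 for Srsf9 and 0.33 for Srsf11, none past the threshold.

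Among the 7 tested hnRNPs of the A/B, C and D types 1 rose and 0 fell, and 5 were positive. Hnrnpa1 (chr15, 103240432 to 103246692) encodes a shuttling protein best known for antagonising SR proteins at splice sites. It stood at 202.3 to 298.2 CPM (median 258.1) in control and 247.8 to 588.6 CPM (median 349.3) in phagocytosis. In 14 of the 16 phagocytosis libraries Hnrnpa1 lay above every control, and it rose by 0.51 on the log2 scale (SE 0.12, edgeR adjusted p = 0.00469). Its 9 near-identical pseudogenes held 0.279% of the reads of gene and copies together. The close relative Hnrnpa2b1 was at 235.4 to 307.9 CPM (median 266.4) in control and 215.4 to 389.2 CPM (median 279.1) in phagocytosis, a log2 difference of 0.10 (SE 0.11, edgeR adjusted p = 0.602), with the states overlapping. Hnrnpa3 cannot be read with confidence, since 58.6% of the reads of gene and copies lay on its 28 near-identical copies. Of the 12 other hnRNPs 0 passed in either direction by edgeR or DESeq2, with 2 at unadjusted p below 0.05, and 9 of the 12 were negative. Hnrnpk was at 262.6 to 537.4 CPM (median 398.5) and 254.9 to 519.3 CPM (median 377.5), and Hnrnpf, which binds G-rich tracts, at 333.3 to 526.3 (median 411.9) and 350.8 to 580.4 CPM (median 472.4). Neither difference exceeded the spread between libraries (log2 -0.11, SE 0.13, and 0.14, SE 0.10; edgeR adjusted p = 0.625 and 0.389). The lowest unadjusted p among them belonged to Hnrnpr (log2 -0.33, edgeR adjusted p = 0.115).

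All 7 tested core Sm proteins were positive, with a median log2 fold change of 0.30, and 2 of them rose. These proteins form the ring around the snRNA of the spliceosomal particles. Snrpd2 (chr7, 19149722 to 19153542) was at 25.9 to 58.2 CPM (median 38.3) in control and 39.4 to 97.9 CPM (median 53.2) in phagocytosis. All 16 phagocytosis libraries lay above the control median for Snrpd2 and 5 above every control, and it rose by 0.66 (SE 0.18, edgeR adjusted p = 0.0127). Snrpf (chr10, 93583029 to 93589706) was at 12.1 to 34.9 CPM (median 22.3) in control and 22.4 to 58.2 CPM (median 33.0) in phagocytosis. Again all 16 lay above the control median and 5 above every control, and Snrpf rose by 0.58 (SE 0.20, edgeR adjusted p = 0.0486). Snrpf is at the edge of the threshold: with the reads of its near-identical pseudogene added, 11.5% of the total, the log2 difference was 0.41 (edgeR adjusted p = 0.139). Snrpb, the Sm gene with the highest TPM, was at 202.9 to 345.1 (median 268.5) and 266.8 to 369.3 CPM (median 315.7), a log2 difference of 0.25 (SE 0.10, edgeR adjusted p = 0.0769). Snrpg was at 28.8 to 78.7 (median 42.8) and 29.7 to 81.8 CPM (median 54.3), a log2 difference of 0.28 (SE 0.19, edgeR adjusted p = 0.362). For both genes the 2 states overlapped.

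Of the 4 proteins of the U1 and U2 particles, 1 rose. Snrpa1 (chr7, 66059003 to 66074587), the U2 A' protein, was at 31.2 to 79.0 CPM (median 46.8) in control and 43.5 to 143.2 CPM (median 67.8) in phagocytosis. In 6 phagocytosis libraries it lay above every control, and Snrpa1 rose by 0.72 (SE 0.21, edgeR adjusted p = 0.0236). Snrpa, the U1 A protein, was at 80.1 to 151.0 (median 119.3) and 110.3 to 184.4 CPM (median 141.0), a log2 difference of 0.31 (SE 0.12) that did not pass (edgeR adjusted p = 0.0918). Snrpb2, the U2 B'' protein that pairs with the product of Snrpa1 in the particle, had a negative value, -0.55 (SE 0.31, edgeR adjusted p = 0.246), on only 205 reads over all libraries.

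Of the 3 SF3a subunits 0 passed by edgeR or DESeq2, and 0 had an unadjusted p below 0.05. Sf3a2 had the largest difference of the 3, 0.66 (SE 0.34, edgeR adjusted p = 0.201), on 282 reads in all. Sf3a3 was at 66.2 to 103.4 (median 90.7) and 56.9 to 120.2 CPM (median 89.1), and Sf3a1 at 57.6 to 97.6 (median 76.2) and 55.1 to 119.9 CPM (median 83.6), differences on the log2 scale of 0.02 (SE 0.13) and 0.17 (SE 0.13). The SF3b complex, which holds the branch point, went both ways, with 1 of 6 higher and 1 lower. Sf3b4 (chr3, 96172332 to 96177564), its RNA-contacting subunit, was at 28.8 to 77.3 CPM (median 49.98) in control and 50.7 to 121.1 CPM (median 76.3) in phagocytosis. All 16 phagocytosis libraries lay above the control median of Sf3b4 and 8 above every control, and it rose by 0.57 (SE 0.16, edgeR adjusted p = 0.0144). Sf3b1 (chr1, 54985169 to 55027481), the scaffold that clamps the branch point helix, was at 273.0 to 343.9 CPM (median 307.5) in control and 221.3 to 285.7 CPM (median 258.7) in phagocytosis. In 15 of 16 phagocytosis libraries Sf3b1 lay below every control, and it fell by 0.27 (SE 0.09, edgeR adjusted p = 0.0364). With counts scaled by transcript length the difference of Sf3b1 was only -0.03 (edgeR adjusted p = 0.927). Sf3b6, which touches the branch adenosine, was at 12.8 to 38.1 (median 28.9) and 19.2 to 71.6 CPM (median 29.7), a log2 difference of 0.17 (SE 0.21, edgeR adjusted p = 0.649).

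**Figure D2:**
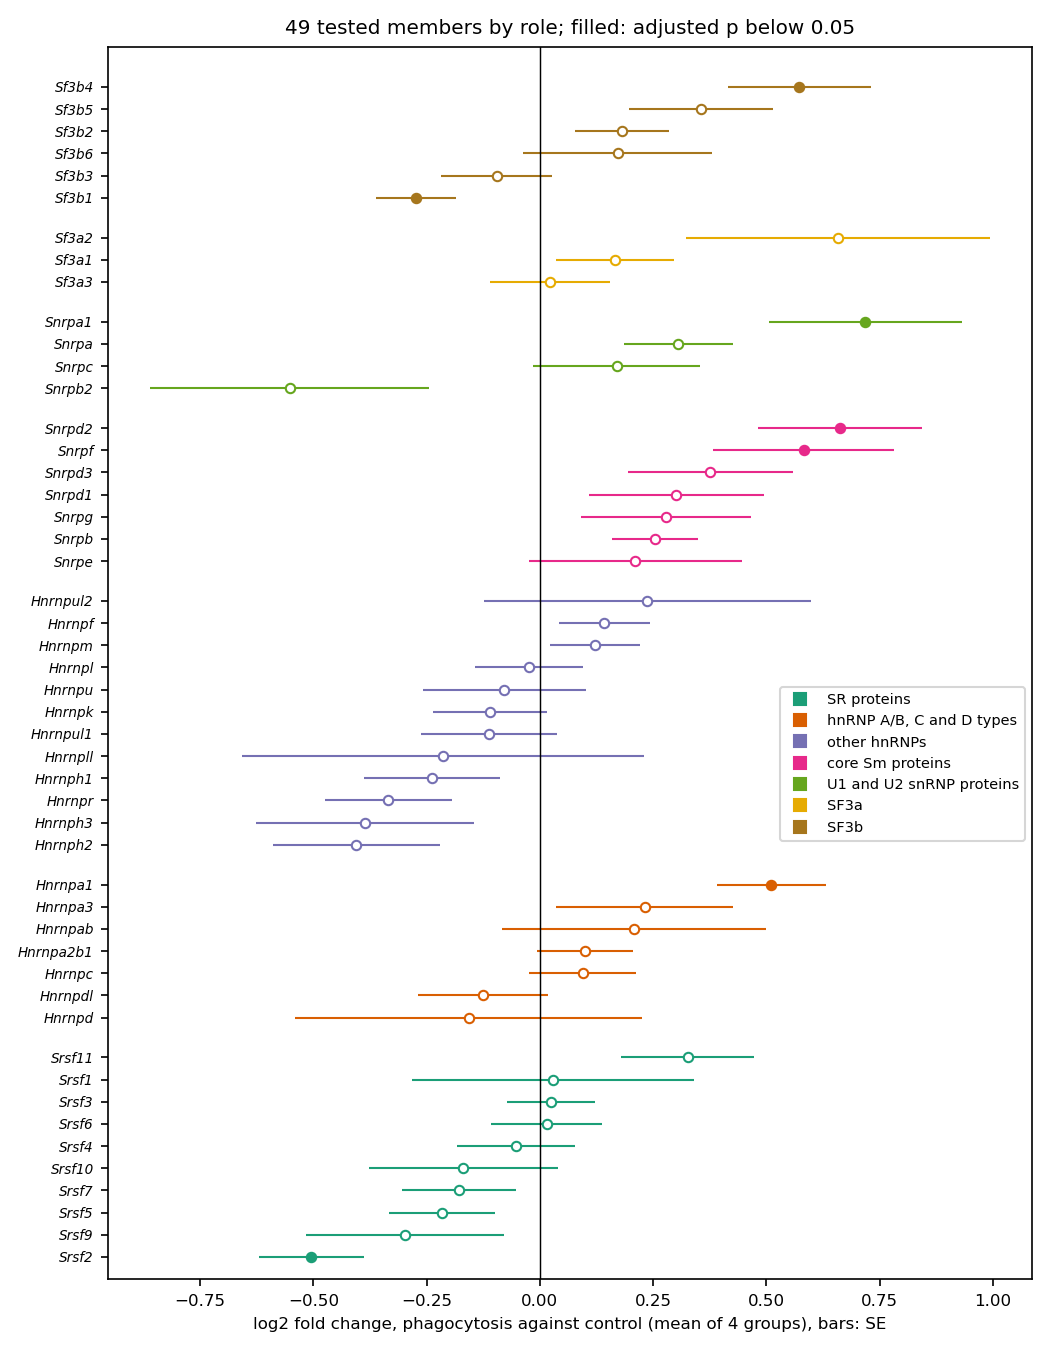
Log2 fold change, phagocytosis against control with the 4 groups weighted equally (horizontal axis), with SE bars, for the 49 tested genes ordered by role, filled where the adjusted p was below 0.05. All 7 core Sm proteins lie to the right of 0, and the SR proteins and hnRNPs lie on both sides, from -0.50 for Srsf2 to 0.51 for Hnrnpa1.

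The calls rest on few control libraries. Srsf2, Hnrnpa1, Snrpd2 and Sf3b4 stayed past the threshold whichever single library was left out, whereas Snrpa1 lost it in 3, Snrpf in 13 and Sf3b1 in 19 of the 24 fits. Without the 3 controls that had over 20% of their reads on satellite-like transcripts, Sf3b4 alone of the 7 passed, and all-gene calls dropped to 410 from 1332. Most folds kept their size there, at -0.46 for Srsf2, 0.53 for Hnrnpa1, 0.76 for Snrpd2, 0.83 for Snrpa1 and -0.24 for Sf3b1, while Snrpf was at 0.41. That fit had fewer control libraries, with only 1 control left in each of female NL4-/-, male WT and male NL4-/-. Within phagocytosis, numbers 1 and 2 minus 3 and 4 had a median log2 difference of 0.11 over the members and 0.01 over all genes, with Hnrnpa1 at 0.32 and Snrpd1 at 0.41. With numbers 3 and 4 alone, Hnrnpa1 was at 0.34 (edgeR adjusted p = 0.0502) and Snrpa1 at 0.57 (0.0530) against the controls. With library totals in place of TMM scaling, 73.81% of all genes called were higher, against 61.86%, and 6 of the 7 genes still passed.

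Within each sex and genotype, 4 phagocytosis libraries were set against 2 controls. By edgeR's quasi-likelihood test none of the 49 genes passed in any of the 4 groups (5, 3, 3 and 4 genes at unadjusted p below 0.05 in female WT, female NL4-/-, male WT and male NL4-/-), and DESeq2 called 0. The background was 0.581, 0.459, 0.326 and 0.602% of all tested genes. The gene with the smallest p was Hnrnpa1 in both female groups, Srsf2 in male WT and Sf3b4 in male NL4-/-. In female WT, Hnrnpa1 was at 290.5 and 256.6 CPM in control and at 401.0, 588.6, 396.0 and 375.2 CPM in phagocytosis (log2 0.68, SE 0.24, edgeR adjusted p = 0.196). In female NL4-/- the values were 202.3 and 233.4 against 358.1, 370.1, 338.7 and 336.7 CPM (log2 0.68, SE 0.24, edgeR adjusted p = 0.313). Every phagocytosis library lay above both controls in each female group. In male WT, Srsf2 was at 155.8 and 140.8 CPM in control and at 100.1, 79.3, 68.6 and 99.4 CPM in phagocytosis (log2 -0.76, SE 0.23, edgeR adjusted p = 0.261). In male NL4-/-, Sf3b4 was at 55.8 and 28.8 against 83.3, 60.3, 90.6 and 87.0 CPM (log2 0.92, SE 0.34, edgeR adjusted p = 0.284). That value rests on 2 unlike controls, being 1.49 without control number 1 and 0.57 without number 2. Control and phagocytosis libraries did not overlap in these 2 groups either. Each gene was picked for the smallest p of its own group, and the share of all genes without overlap there was not counted. Each of the 7 genes past the threshold in the mean had the same sign in all 4 groups. They were chosen on the mean of these same 4 differences, so the shared sign is no separate support. The ranges were -0.76 to -0.30 for Srsf2, 0.27 to 0.68 for Hnrnpa1, 0.26 to 0.98 for Snrpd2 and 0.42 to 0.92 for Sf3b4. For Snrpa1 the range was 0.54 to 1.06, for Sf3b1 -0.35 to -0.21 and for Snrpf 0.19 to 0.88.

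**Figure D3:**
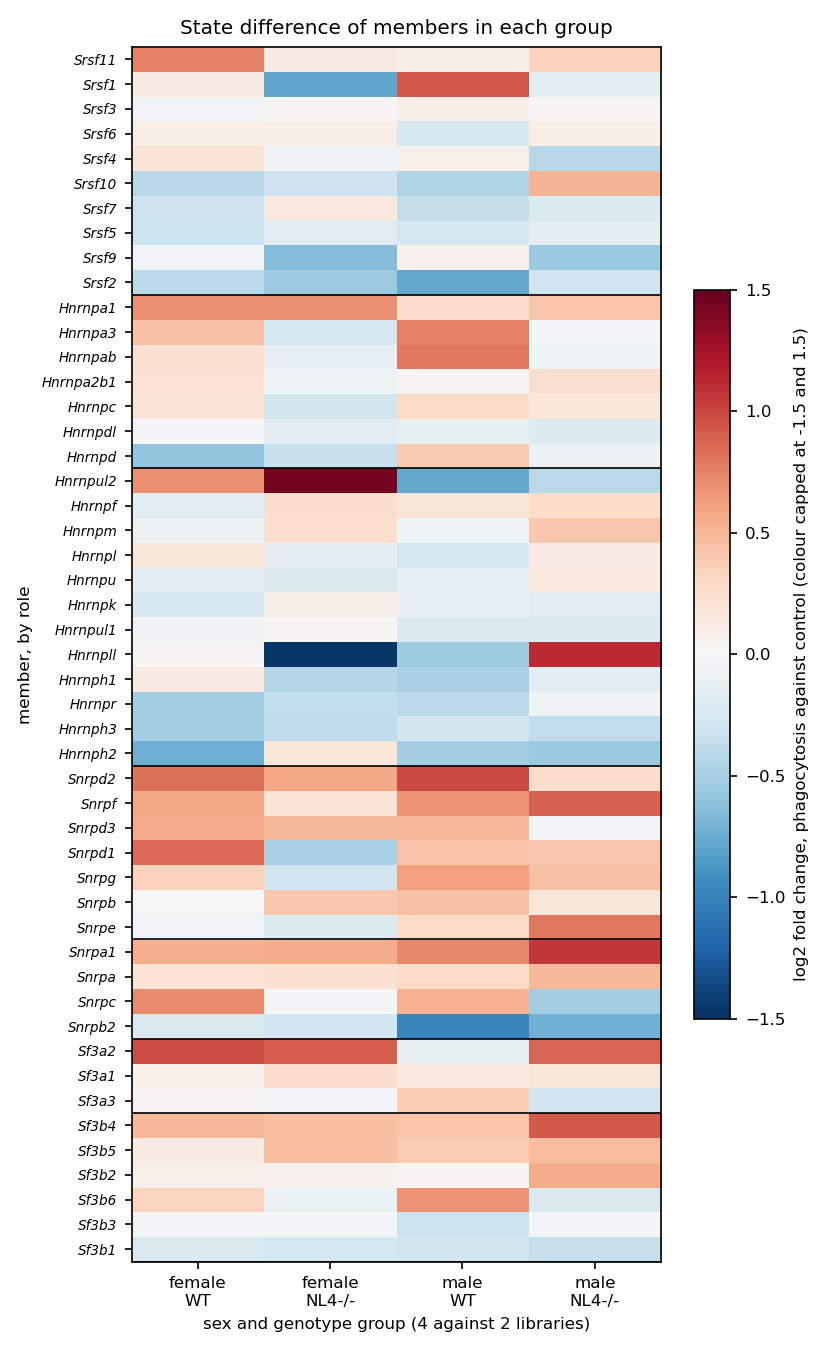
Log2 fold change, phagocytosis against control (colour, red higher and blue lower in phagocytosis, capped at -1.5 and 1.5), of the 49 tested genes (rows, by role) in the 4 sex and genotype groups (columns, 4 against 2 libraries each). The rows of Snrpd2, Snrpf, Snrpa1 and Sf3b4 are red and those of Srsf2 and Sf3b1 blue in all 4 columns, while Hnrnpul2, Hnrnpll and Srsf1 change sign between columns. Genes past the threshold were chosen on the mean of these 4 columns.

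The question of genotype was whether microglia lacking neuroligin-4, a postsynaptic adhesion protein, differ from WT in these genes. By edgeR's quasi-likelihood test none of the 49 passed in any sex and state or in their mean, where the background was 0% of all tested genes, and DESeq2 called 0 of them. At unadjusted p below 0.05 there were 0 genes in female control, 1 in male control, 3 in female phagocytosis, 5 in male phagocytosis and 2 in the mean. Hnrnpl, which binds CA repeats, had the smallest p in male phagocytosis. It was at 85.5, 69.9, 62.6 and 61.9 CPM in WT and 121.3, 106.9, 97.1 and 118.6 CPM in NL4-/- males (log2 0.66, SE 0.19, edgeR adjusted p = 1). The male groups did not overlap for Hnrnpl, picked for its small p there, and the share of all genes without overlap was not counted. In females it was at 71.2, 82.8, 99.4 and 110.6 CPM in WT and 83.1, 73.2, 82.4 and 77.1 CPM in NL4-/- (log2 -0.20, SE 0.19). The difference between the sexes, tested as an interaction, was 0.85 (SE 0.27, edgeR adjusted p = 0.977), the smallest p of the 49 for that term. Snrpd1, an Sm protein, had the smallest p in female phagocytosis, at 40.1, 76.1, 45.0 and 46.5 CPM in WT and 28.8, 26.4, 36.0 and 33.2 CPM in NL4-/- (log2 -0.69, SE 0.30, edgeR adjusted p = 0.946). In control libraries Srsf7 was at 188.2 and 144.8 CPM in WT and 105.6 and 118.8 CPM in NL4-/- females (log2 -0.57, SE 0.29, edgeR adjusted p = 1; -0.38 without WT number 1), and Srsf4 at 68.3 and 62.1 against 106.8 and 98.3 CPM in males (log2 0.66, SE 0.31, edgeR adjusted p = 1). In the mean over sex and state it was Srsf2, at 68.6 to 155.8 CPM (median 113.0) in WT and 89.5 to 177.2 CPM (median 130.3) in NL4-/- (log2 0.26, SE 0.12, edgeR adjusted p = 1.00).

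In phagocytosis the genotype differences, none of which passed, leaned opposite ways in the 2 sexes. NL4-/- against WT had a median log2 fold change of -0.12 over the 49 genes in females, with 19 positive, and 0.12 in males, with 34 positive. All tested genes stood at 0.01 and -0.01, with 51.0 and 48.6% positive. The interaction was positive for 39 of 49 genes, among them all 7 core Sm proteins, against 48.6% of all tested genes. Its median was 0.31 over the 49 genes and -0.01 over all genes. One library carried much of this: without female WT phagocytosis number 2 the female median was -0.02, with 21 positive, and the interaction median 0.18, with 34 positive. That library had 448652 reads, the fewest genes with a read (11582) and the highest share of reads on the 52 genes (0.633%). Without male NL4-/- phagocytosis number 2 the male median was 0.03, with 26 positive, and the interaction median 0.22. No gene passed for this term or for genotype by sex in control, genotype by state or sex by state by edgeR's quasi-likelihood test (2, 1, 1 and 1 at unadjusted p below 0.05; background 0% each), and DESeq2 called 0. The smallest p in these other terms belonged to Snrpb (0.71, SE 0.31), Snrpc, a U1 protein (-0.90, SE 0.37), and Hnrnpul2 (-1.64, SE 0.72, on 152 reads in all).

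**Figure D4:**
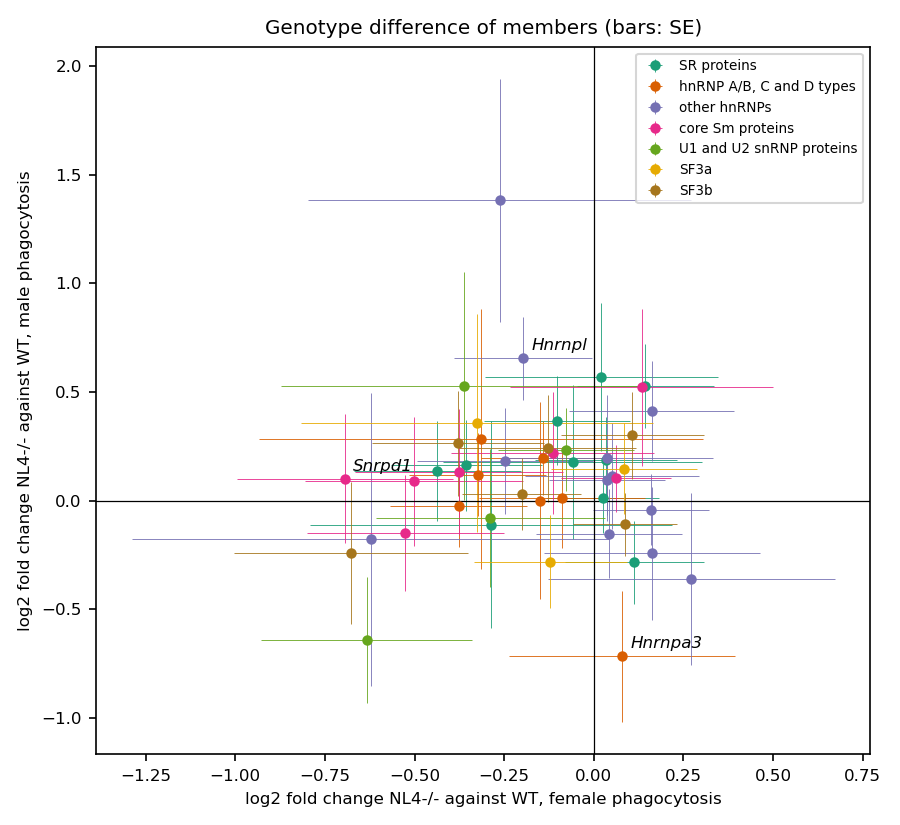
Log2 fold change of NL4-/- against WT in female (horizontal axis) and male (vertical axis) phagocytosis libraries, 4 against 4 libraries each with none in common, for the 49 tested genes coloured by role, with SE bars. Most points lie above 0 on the male axis (34 of 49) and left of 0 on the female axis (30 of 49). Of all tested genes, 48.6% were above 0 in males and 51.0% in females. The SE bars of most points cross 0 on at least 1 axis.

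Between the sexes too no gene of the 49 passed (edgeR), against a background of 0% in WT control, 0.0102% in NL4-/- control, 0.0204% in WT phagocytosis, 0.0102% in NL4-/- phagocytosis and 0.0612% in the mean. Unadjusted p was below 0.05 for 1, 2, 4, 1 and 4 genes in that order, and DESeq2 called 0. In the mean the smallest p was that of Srsf10, an SR protein known as a repressor of splicing in its dephosphorylated form. Srsf10 was at 30.5 to 60.1 CPM (median 41.1) in the 12 female and 9.59 to 53.4 CPM (median 27.3) in the 12 male libraries (log2 -0.66, male against female, SE 0.21, edgeR adjusted p = 0.788), with overlap. Within groups the smallest p belonged to Snrpb in WT control, at 345.1 and 278.7 CPM in females and 232.7 and 202.9 CPM in males (log2 -0.52, SE 0.22), and to Hnrnpul2 in NL4-/- control, at 4.495 and 2.73 against 9.71 and 26.4 CPM (log2 2.32, SE 0.89, and 1.43 without male control number 2). In phagocytosis it was Hnrnpa3 in WT (log2 0.82, SE 0.30, edgeR adjusted p = 0.560), the gene that shares most of its reads with copies, whose value was 0.52 without male WT number 2, and Hnrnpl in NL4-/- (log2 0.48, SE 0.19). Among WT phagocytosis libraries 40 of 49 genes were lower in males, with a median of -0.21. Of all tested genes 51.9% were higher in males there, with a median of 0.02. Without female WT number 2 the median over the 49 genes was -0.08.

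Because members of these families are known to be tuned through transcripts that are not translated, the balance of transcript kinds within each gene was compared between states. The values are the authors' estimates of how reads divide among transcripts that share most of their sequence. For transcripts annotated as targets of nonsense-mediated decay (NMD), 14 of the 24 genes that have both kinds could be tested, and 0 passed (limma on log2 ratios), with 0 at unadjusted p below 0.05. Of all 870 genes tested 0% passed, with 51 at unadjusted p below 0.05. Hnrnpa1 had 8.21 to 23.8% of its reads on NMD transcripts in control (median 18.6%) and 5.81 to 17.4% in phagocytosis (median 10.03%). Its log2 ratio of NMD to other transcripts differed by -0.74 (SE 0.39, limma adjusted p = 0.871), and the states overlapped. The level of Hnrnpa1's coding transcripts had medians of 206.6 and 314.9 CPM in control and phagocytosis and that of its NMD transcripts 44.4 and 35.8 CPM. Snrpb, known to carry an exon that triggers decay, had 0 to 8.93% and 0 to 6.11% (log2 ratio -1.43, SE 0.89, limma adjusted p = 0.871), and its log2 ratio was -0.80 without female NL4-/- control number 1 and -2.05 without number 2.

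Transcripts annotated as retaining an intron, a readout added after the files were seen, could be compared with the others in 21 of 38 genes. None passed by limma, with 5 at unadjusted p below 0.05, against 0.349% of 2577 genes that passed. The log2 ratio was negative in 16 of the 21, with a median of -0.66 against -0.19 over all genes tested. Srsf3, a small SR protein, had 10.7 to 24.04% of its reads on such transcripts in control (median 19.8%) and 4.52 to 17.9% in phagocytosis (median 10.2%), a log2 ratio difference of -0.94 (SE 0.27, limma adjusted p = 0.222). Its gene total was at 175.0 to 235.4 and 172.1 to 228.5 CPM, so the total of Srsf3 hardly differed (log2 0.02, SE 0.10) while its coding transcripts had medians of 121.5 and 151.0 CPM and its intron-retaining ones 39.1 and 20.2 CPM. Hnrnpa2b1 had 2.52 to 18.1% and 0 to 13.7% (log2 ratio -1.16, SE 0.47, limma adjusted p = 0.427). Sf3b1, named here after its values were seen, went the other way, with 26.8 to 41.0% in control (median 32.9%) and 13.3 to 68.2% in phagocytosis (median 46.5%), a log2 ratio difference of 0.81 (SE 0.36, limma adjusted p = 0.476). Coding transcripts of Sf3b1 had medians of 199.0 and 126.3 CPM and its intron-retaining ones 101.2 and 123.3 CPM. Srsf2, also named after its values were seen, had 39.1 to 64.1% (median 48.9%) and 23.7 to 65.7% (median 43.4%) on intron-retaining transcripts. Its log2 ratio differed by -0.33 (SE 0.32, limma adjusted p = 0.782). Its intron-retaining transcripts had medians of 78.4 and 48.7 CPM, its NMD transcripts 48.3 and 18.4 CPM and its coding transcripts 21.9 and 23.9 CPM. For all 4 genes the states overlapped in the share.

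**Figure D5:**
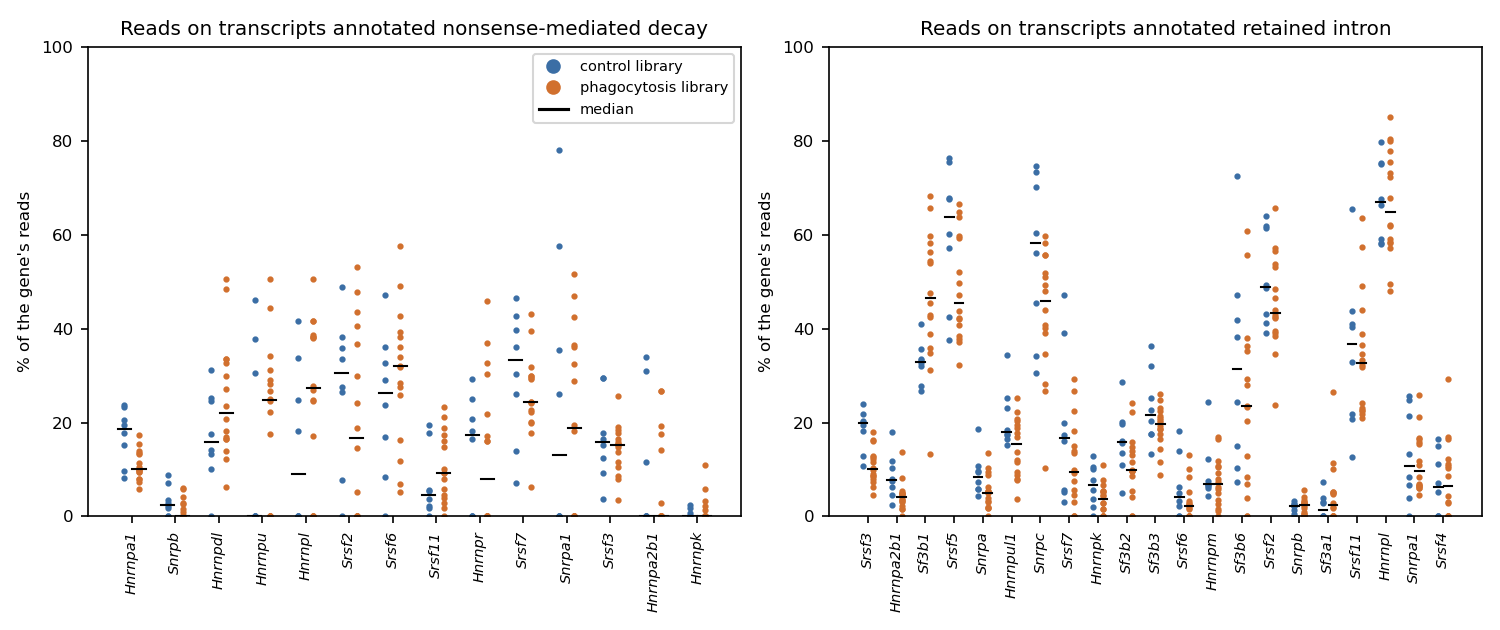
Share of a gene's reads, in percent, on transcripts annotated as NMD targets (left, 14 genes) or as retaining an intron (right, 21 genes), with a point for each library, control in blue and phagocytosis in orange, a black line at each median, and genes in order of p. In the right panel Srsf3 has a median of 19.8% in control and 10.2% in phagocytosis, Sf3b1 one of 32.9 and 46.5%, and the points of both states overlap for each gene.

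Other genes of the splicing pathway were taken from 8 lists with 129 genes, of which 124 were tested: 7 rose and 4 fell in phagocytosis, with a median log2 fold change of 0.05. These 11 are 8.87% of the 124 (5.65% higher, 3.23% lower), against 13.6% of all tested genes (8.41% higher, 5.18% lower). Among the 17 factors of U1, U2 and the 3' splice site outside the 52 genes 1 rose, Rbm17, from 37.7 ± 11.9 (SD, n = 8) to 65.7 ± 17.1 CPM (SD, n = 16; log2 0.82, edgeR adjusted p = 0.00331). Of the 7 tested LSm proteins, which ring the U6 RNA and act in mRNA decay, 2 rose: Lsm4, from 28.6 to 64.6 CPM on average (log2 1.19, edgeR adjusted p = 0.00283), and Lsm7 (log2 0.48, edgeR adjusted p = 0.0391). In the tri-snRNP 1 of 17 rose, Usp39 (log2 0.67), among 21 catalytic-step factors 1, Dhx38 (log2 0.48), and among 14 genes of the exon junction complex and export 1, Rbm8a (log2 0.55). Of the 8 kinases that phosphorylate SR proteins 1 fell, Clk1, from 83.9 to 121.1 CPM in control to 42.7 to 100.8 CPM in phagocytosis (log2 -0.56, SE 0.14, edgeR adjusted p = 0.00574), and 2 of the 8 were positive. Of 12 SR-related proteins 0 passed (edgeR; 0 at unadjusted p below 0.05), Son having the smallest p (log2 -0.16, edgeR adjusted p = 0.278). Among 28 other regulators 3 fell and 1 rose. Qk, which encodes the RNA-binding protein quaking, fell from 186.7 to 115.7 CPM on average (log2 -0.68, edgeR adjusted p = 0.00178), Tia1 fell (log2 -0.49) and Raly, an hnRNP relative outside the rule, rose (log2 1.09). The third to fall, Rbm5, was outside the naming rule and is named after its value was seen (log2 -0.41, edgeR adjusted p = 0.0239).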

How the data were processed

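RNA from sorted mouse microglia was measured in 24 Smart-Seq2 libraries. Per the file headers, the authors deposited expected counts (NumReads, not normalised), effective lengths and TPM (scaled per length to a fixed sum) for every transcript. No source used here names the quantifier or its index. The 116945 transcripts were matched to GENCODE vM21 (GRCm38), 922 without a match were left out (0.274 to 0.379% of reads), and expected counts were summed to 35519 genes and rounded. Genes passing edgeR's expression filter (minimum count 10; 9803 genes) were fitted with edgeR 4.0.16 (TMM, robust quasi-likelihood, 1 fit of 24 libraries with 8 group means, 19 comparisons, Benjamini-Hochberg threshold 0.05). The spread shared by all groups sets the precision, with a biological coefficient of variation of 0.285, and normalisation factors were 0.884 to 1.08. SE were worked back from the fold change and F. CPM are TMM-normalised. Deposited TPM served for levels between genes and, with the deposited effective lengths, for length-scaled counts. Kinds of transcript were compared with limma 3.58.1 on log2 ratios of expected counts with 0.5 added. Copies were found with blastn 2.17.0 (at least 95% identity over 200 bases). The count and ratio tests were also run on simulated counts that gave all genes the same spread, and the outcome is not reported here.

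Members and lists were chosen with earlier results of these data known. Named genes were, in the state mean, up to 14 members past the threshold and the 2 of highest TPM in each class. In every other comparison it was the 1 of smallest p, for NMD balance the 2 of smallest p, and in each list of other splicing genes up to 3 past the threshold or the 1 of smallest p. Alternatives were DESeq2 1.42.0, other scalings and filters, length-scaled counts, a replicate block, subsets of libraries, pseudogene reads added, and each library left out. Reads copied by amplification are not independent molecules, and where labels do not tie libraries to animals p-values measure only the spread between these libraries. The design text states 5 phagocytosis replicates per group, and the fifth is not analysed here.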

Additional observations from a re-analysis of the deposited data

Results flagged for a closer look

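A library far from the other 3 of its group was found in 5 of 104 groups of 4 phagocytosis libraries examined, and chance gives about 1 in 20. Hnrnpa1 was at 588.6 CPM in female WT phagocytosis number 2 and at 375.2 to 401.0 CPM in the other 3. In the same library the members held 0.633% of reads, against 0.538 to 0.554% in the other 3. Sf3a1 was at 98.4 CPM and Snrpd2 at 76.4 CPM in male NL4-/- phagocytosis number 3, against 72.4 to 75.4 and 48.9 to 53.4 CPM. Snrpf was at 49.3 CPM in male NL4-/- phagocytosis number 2, against 33.6 to 34.4 CPM. Of 196 interaction tests on the members, 0 passed the threshold (edgeR), with 2 at unadjusted p below 0.05 for genotype by sex in phagocytosis and 1 for each of the other 3 terms.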

How the results depend on the processing

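The count of members lower in phagocytosis, 2, was 1 with library totals only, with no expression filter, with a replicate block, with phagocytosis numbers 3 and 4 only and with numbers 1 and 2 only, and 0 with length-scaled counts and without the 3 controls over 20% satellite-like reads. The count higher, 5, was 3 with length-scaled counts, 2 with numbers 3 and 4, 8 with numbers 1 and 2, and 1 without those controls. Over single libraries left out the counts ranged from 1 to 2 lower and from 3 to 6 higher, and all-gene calls (1332) from 781, without female WT control number 2, to 1508. All-gene calls were 782 with numbers 3 and 4 and 410 without the 3 controls. With numbers 1 and 2 alone 1050 genes were called higher and 722 lower, and with the replicate block 928 and 718. The main fit called 824 higher and 508 lower. With length-scaled counts Srsf2 (log2 -0.45, edgeR adjusted p = 0.0717), Sf3b4 (0.52, 0.0659) and Snrpf (0.55, 0.0976) kept about their size without passing, and Sf3b1 shrank to -0.03. DESeq2 called 6 of the 7 and Snrpb, with Snrpf at an adjusted p of 0.0572.

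Correlations of deviations were -0.0874 to 0.147 for same-numbered phagocytosis libraries and -0.141 to 0.176 for those with different numbers. These ranges overlapped, and the numbers were not taken as pairs in the main fit. Control values were -0.107 to 0.0797 for the same number and -0.0797 to 0.107 for different numbers. Deviations within a control group are exact opposites, so these mirrored control ranges cannot tell whether the numbers pair. Whether numbers 3 and 4 differ together from the others was not tested with these correlations. With the replicate block Sf3b4 (edgeR adjusted p = 0.0662) and Sf3b1 (0.103) did not pass, and 1 member, Hnrnpa1, did in female WT (log2 0.83, 0.0413). Members that changed sign had not passed: Sf3a3 was -0.0646 with length-scaled counts, -0.0202 with the replicate block and -0.0204 to 0.102 with a library left out, Hnrnpa2b1 was -0.00227 with numbers 3 and 4, and Hnrnpk was 0.0797 without the 3 controls and -0.207 to 0.0631 with a library left out. The settings differ in their number of libraries, and the cause of these changes was not tested. Depth limits the low members: at 421107 reads a gene at 10 CPM has about 4 reads.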
